A study of Homo sapiens with 6 samples.

Results

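The methionine cycle and transsulfuration enzymes described here are 10 human genes, MAT1A, MAT2A, MAT2B, AHCY, CBS, CTH, MTR, MTRR, BHMT and GNMT, taken by gene symbol from the 60605 genes of the table. They were measured by RNA-seq in HepG2, an established human liver cancer line labelled as wild type. One group, sh-control, was infected with a lentivirus carrying a control short hairpin RNA (3 libraries). The other, sh-circFTO, received a lentiviral hairpin against circFTO, a circular RNA from the FTO gene (3 libraries). All cells were grown in DMEM with serum and antibiotics, and the labels name neither methionine, serine nor glycine withdrawal, a selection step nor a clone. Nothing in the labels says that replicate libraries were grown apart, so the p-values measure the spread between these libraries, which may be technical. The comparison asks which of these genes differed in RNA level when circFTO was targeted.

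In the methionine cycle, methionine adenosyltransferase (MAT) joins methionine to ATP and makes S-adenosylmethionine, the methyl donor of most methylation reactions. After the methyl group is passed on, S-adenosylhomocysteine is split by AHCY into adenosine and homocysteine. Homocysteine is then either remethylated to methionine, with folate and vitamin B12 by MTR or with betaine by BHMT, or sent through CBS and CTH to cysteine, the route called transsulfuration. Hepatocytes are known for MAT1A, GNMT and BHMT, whereas MAT2A is the form that dividing cells and most other tissues use.

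Library totals ran from 13361333 to 16178079 counts. Levels below are library-scaled counts (CPM) after TMM normalisation, which sets the typical gene as unchanged, and a fold change compares sh-circFTO with sh-control on the log2 scale, given with its standard error (SE). Without that scaling every log2 fold change moves up by about 0.15, the shift of the median gene. The liver identity of the line showed in both groups. All 8 hepatocyte markers tested were present, and all 8 fell in sh-circFTO (6 with library size as the only scaling). Of all tested genes, 34.8% were lower (27% with library size only). Their summed level was 24071 to 24305 CPM over the sh-control libraries and 14333 to 14466 CPM over the sh-circFTO libraries. The falls were unequal. Mean APOB went from 7586 to 2528 CPM, a log2 fold change of -1.59. ALB, APOA1 and AFP fell less, at -0.21, -0.22 and -0.25. None of 6 fibroblast markers reached the filter on low values (summed level 4.25 to 5.87 CPM against 2.95 to 5.41 CPM), and PTPRC, HBB, KDR and LUM had no counts in any library. Within the fibroblast sum, mean PDGFRB went from 4.71 to 2.39 CPM and mean COL1A1 from 0.0882 to 1.03 CPM. Summed blood markers were 2.03 to 2.79 CPM in sh-control libraries against 9.89 to 13.8 CPM in sh-circFTO, where CD79A made up most. Summed endothelial markers were 5.80 to 10.3 CPM in sh-control and 11.6 to 14.6 CPM in sh-circFTO. Summed cholangiocyte markers were 663 to 702 CPM and 1612 to 1625 CPM, and 1 of the 3 tested, KRT19, rose while SOX9 and EPCAM fell. In bulk RNA, fewer cells of a kind and less RNA per cell cannot be told apart.

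Of the 10 genes, 9 had a level of at least 1 FPKM (the deposited unit, scaled to exonic length and library total) in all 6 libraries and were tested, and GNMT missed the filter. Of these 9, 7 fell, 1 (MAT2B) rose and 1 (MTRR) did not pass the test (edgeR's quasi-likelihood test, Benjamini-Hochberg adjusted p under 0.05). Over all 12865 genes tested, 69.7% passed, 34.8% lower and 34.9% higher, so that passing the test sets no gene apart in this comparison. CTH, MAT1A and BHMT fell by more than 2-fold, as did 7.62% of all tested genes. The median log2 fold change was -0.47 over the 9 genes and 0.00 over all genes tested. Counting GNMT, the groups did not overlap for 8 of the 10 genes, 7 lower and 1 higher, against 71.5% of all tested genes, 35.7% lower and 35.8% higher. Scaled by library size alone, the 9 genes again gave 7 lower and 1 higher, where 71.3% of all genes passed, 27% lower and 44.3% higher.

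**Figure D1:**
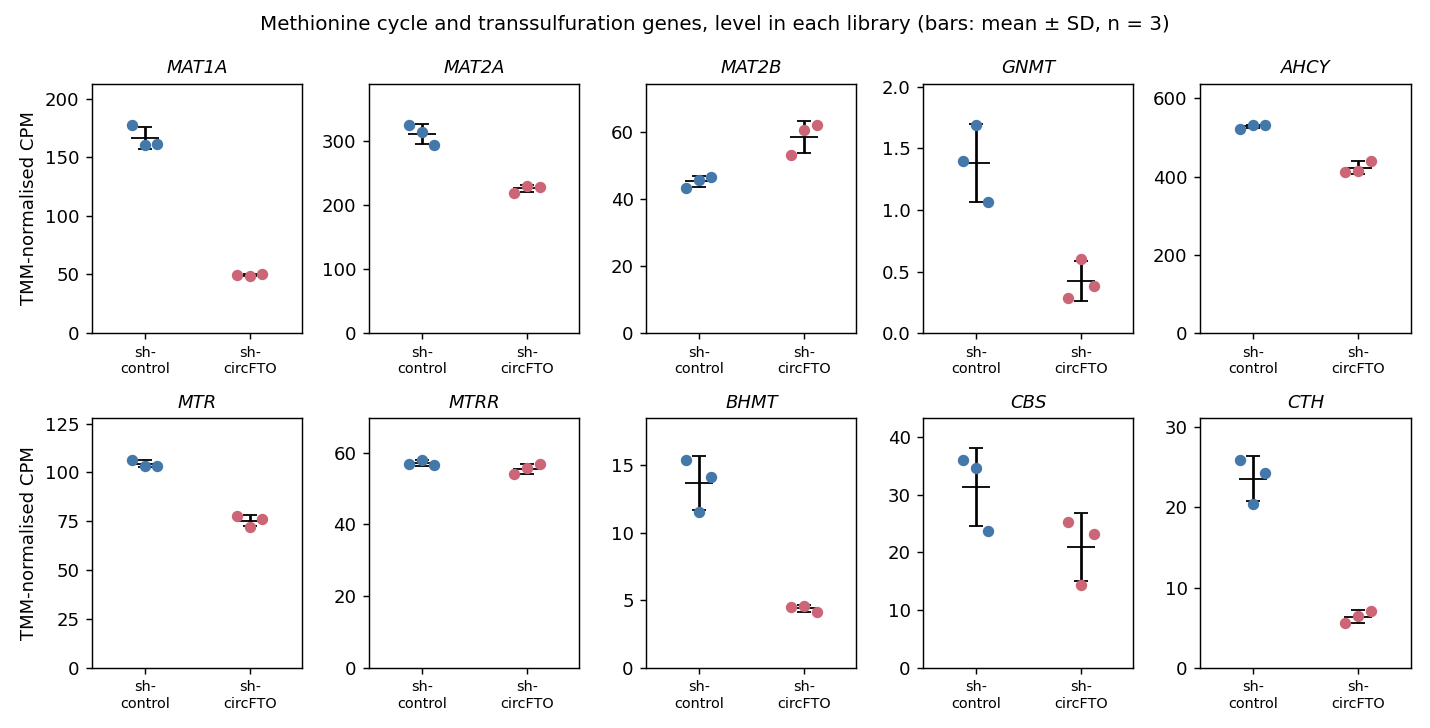
TMM-normalised CPM (y axis, from 0 in each panel) of the 10 genes in each library of sh-control (blue points) and sh-circFTO (red points), with the mean and SD of 3 libraries in black. The groups stand apart for all genes except CBS and MTRR, and MAT2B is the one gene whose sh-circFTO libraries all lie above its sh-control libraries.

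The sequence just before the start of MAT1A, MAT2A, CTH and BHMT is shown because the first pair are isozymes of one reaction that differed in the size of their fall, and CTH and BHMT were also more than 2-fold lower. The sequences are RefSeq's on GRCh38.p14, written 5′ to 3′ on the gene's strand, within 250 bases before the RefSeq start and ended before the first base that GENCODE 29 puts in an exon. Capitals mark CG dinucleotides, the sites of DNA methylation. The stretches are MAT1A at chr10:80289685-80289908 (minus strand), MAT2A at chr2:85538918-85539164 (plus strand), CTH at chr1:70411018-70411217 (plus strand) and BHMT at chr5:79111559-79111778 (plus strand).
MAT1A: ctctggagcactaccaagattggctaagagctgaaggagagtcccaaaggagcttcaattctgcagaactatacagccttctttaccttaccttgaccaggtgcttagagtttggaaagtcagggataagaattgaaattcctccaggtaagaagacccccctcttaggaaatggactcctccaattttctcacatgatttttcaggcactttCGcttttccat
MAT2A: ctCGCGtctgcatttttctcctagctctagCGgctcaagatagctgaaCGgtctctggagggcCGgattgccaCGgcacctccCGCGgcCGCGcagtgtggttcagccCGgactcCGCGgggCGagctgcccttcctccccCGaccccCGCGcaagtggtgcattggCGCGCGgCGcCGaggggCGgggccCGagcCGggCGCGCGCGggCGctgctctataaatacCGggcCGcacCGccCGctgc
CTH: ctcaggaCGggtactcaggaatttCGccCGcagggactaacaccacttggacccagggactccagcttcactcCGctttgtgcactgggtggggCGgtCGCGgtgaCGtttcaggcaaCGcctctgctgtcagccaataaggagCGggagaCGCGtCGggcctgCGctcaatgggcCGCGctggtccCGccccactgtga
BHMT: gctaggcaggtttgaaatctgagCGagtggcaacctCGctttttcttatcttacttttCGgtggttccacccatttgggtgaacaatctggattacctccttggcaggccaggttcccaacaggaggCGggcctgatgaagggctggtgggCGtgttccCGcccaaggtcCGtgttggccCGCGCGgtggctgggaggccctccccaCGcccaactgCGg
The printed MAT1A stretch holds 1 CG in 224 bases and the MAT2A stretch 34 in 247, while CTH has 17 in 200 and BHMT 12 in 220. Over the full 250-base windows of 9 of the 10 genes (MTRR had none to use), CG counts were 2 for MAT1A, 1 for MAT2B, 14 for BHMT, 16 for AHCY, 17 for MTR, 18 for GNMT, 20 for CTH, 34 for MAT2A and 41 for CBS. The median of 27305 RefSeq windows was 11. Of the genes that fell most, MAT1A had fewer CG than the median window, and CTH, GNMT and BHMT had more. Any link between CG count and fold change was not tested. A gene with several starts has other upstream sequences than the one RefSeq's start gives.

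Short motifs were searched in those windows on both strands. TGATGNAA, the core of the element that ATF4 and CEBP proteins bind, was in none of the 9 windows and in 3.19% of all windows. CACGTG, the E-box that MYC and MAX bind, was in none of the 9 and in 6.49% of all. CCAAT was in 5 of the 9 (MAT1A, MAT2A, CTH, MTR and GNMT) and in 33% of all, and TATAAA in 2 of the 9, 32 bases before the start of MAT2A and 29 before that of BHMT, and in 11.1% of all. The BHMT match lies in bases that GENCODE 29 puts in an exon of BHMT, outside the printed stretch. No motif overlapped another in these windows, and a match or its lack says only which letters the window holds.

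MAT1A (ENSG00000151224, chromosome 10 from 80271820 to 80289658 on GRCh38) encodes the catalytic subunit of the liver forms of MAT. Its level was 177, 160 and 162 CPM in the sh-control libraries and 49.6, 48.5 and 50.02 CPM in the sh-circFTO libraries. The sh-circFTO libraries lay close together and far below every sh-control library. The mean went from 166 ± 9.38 to 49.4 ± 0.762 CPM (SD, n = 3), a log2 fold change of -1.75 (SE 0.0534, edgeR quasi-likelihood adjusted p = 6.61e-22), or 3.37-fold lower. Only 196 of the 12865 tested genes had a lower log2 fold change. The summed hepatocyte markers fell with it, and their part in this result was not tested.

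MAT2A (ENSG00000168906, chromosome 2 from 85539168 to 85545281) encodes the catalytic subunit of the other MAT form. It stood at 325, 315 and 295 CPM in sh-control and at 219, 230 and 229 CPM in sh-circFTO, without overlap. The log2 fold change was -0.46 (SE 0.0426, edgeR quasi-likelihood adjusted p = 8.50e-11), a fall of 27.4%, against 70.3% for MAT1A. Of its exonic bases in GENCODE 29, 558 (12.4%) also belong to exons of GGCX on the opposite strand, and since the use of strand in counting is not given in the sources used here, reads there cannot be assigned to either gene. GGCX had 1340, 1451 and 1437 counts in sh-control and 1143, 1349 and 1270 in sh-circFTO.

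Set per kilobase of exon, MAT1A made up 40.0%, 38.4% and 40.2% of the summed MAT1A and MAT2A FPKM in the sh-control libraries. In the sh-circFTO libraries the share was 21.7%, 20.5% and 21.1%. The share moved by -18.4 percentage points, from 39.5% ± 0.986 to 21.1% ± 0.588 (n = 3, two-sided exact permutation p = 0.1, the smallest p of this design). The sum of both genes was 109 ± 5.80 FPKM in sh-control and 67.2 ± 1.33 FPKM in sh-circFTO. Per length, MAT2A was the more abundant of these catalytic transcripts in all 6 libraries.

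MAT2B (ENSG00000038274, chromosome 5 from 163503114 to 163519354) encodes the regulatory subunit that binds the MAT2A protein. Its level was 43.5, 45.7 and 46.8 CPM in sh-control and 53.1, 60.6 and 62.2 CPM in sh-circFTO, every sh-circFTO library above every sh-control library. It rose by 0.37 on the log2 scale (SE 0.0674, edgeR quasi-likelihood adjusted p = 1.57e-05), or 1.30-fold. The ratio of MAT2B to MAT2A FPKM was 0.117, 0.127 and 0.139 in sh-control and 0.211, 0.230 and 0.238 in sh-circFTO. On the log2 scale this ratio was higher by 0.83 in sh-circFTO (n = 3 per group, two-sided exact permutation p = 0.1, the smallest possible). The transcripts of the regulatory and the catalytic subunit thus moved in opposite directions. This also held with library size as the only scaling, where MAT2B was at 0.52 and MAT2A at -0.32.

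GNMT (ENSG00000124713, chromosome 6 from 42960754 to 42963880) encodes glycine N-methyltransferase, a liver enzyme that uses up S-adenosylmethionine by methylating glycine to sarcosine. It was close to the limit of detection, with 20, 26 and 15 counts in the sh-control libraries and 4, 10 and 6 in the sh-circFTO libraries. In CPM this was 1.40, 1.69 and 1.06 against 0.285, 0.602 and 0.385, without overlap. In a fit of all 30254 genes with any count its log2 fold change was -1.69 (SE 0.473, edgeR quasi-likelihood adjusted p = 0.00141, 95% interval -2.61 to -0.76). PEX6, on the opposite strand, shares 11 exonic bases with it and had 336, 378 and 282 counts in sh-control and 134, 180 and 175 in sh-circFTO.

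AHCY (ENSG00000101444, chromosome 20 from 34280268 to 34311802), the hydrolase that clears S-adenosylhomocysteine, an inhibitor of methyltransferases, was the most abundant of the 10 transcripts. It stood at 523, 531 and 530 CPM in sh-control and at 412, 415 and 441 CPM in sh-circFTO, without overlap. The log2 fold change was -0.32 (SE 0.0382, edgeR quasi-likelihood adjusted p = 1.49e-08), a fall of 19.9%. With library size as the only scaling it was -0.18 (edgeR quasi-likelihood adjusted p = 0.000156). The table has 6 AHCY pseudogenes, which together held 6 counts over all libraries, so few of the gene's reads were assigned to them.

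**Figure D2:**
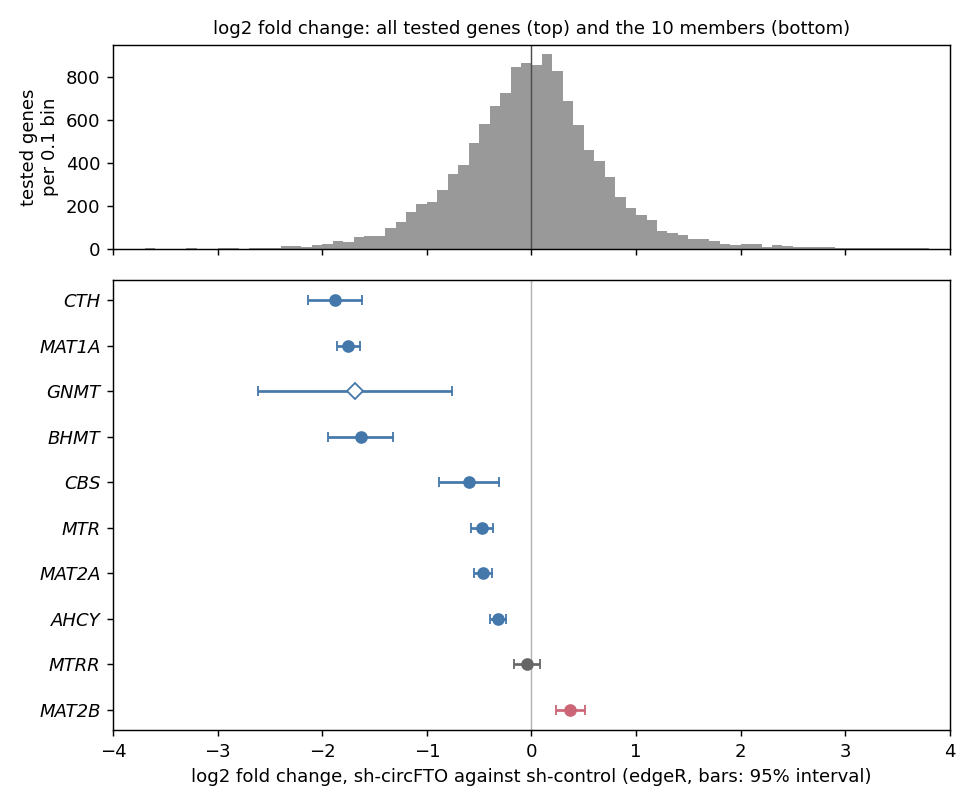
Top, number of tested genes (y axis) per 0.1 of log2 fold change of sh-circFTO against sh-control (x axis). Bottom, the fold change of each of the 10 genes on the same axis with its 95% interval, blue for lower, red for higher and grey for not passing the test, with an open diamond for GNMT from the fit without a filter. CTH, MAT1A, GNMT and BHMT lie between -1.88 and -1.63, in the left tail of all genes, and the other genes lie between -0.60 and 0.37.

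MTR (ENSG00000116984, chromosome 1 from 236795260 to 236921278), methionine synthase, moves a methyl group from methylfolate to homocysteine with B12 as cofactor. Its level was 106, 103 and 103 CPM in sh-control and 77.6, 72.0 and 75.9 CPM in sh-circFTO, without overlap. The log2 fold change was -0.47 (SE 0.0519, edgeR quasi-likelihood adjusted p = 3.03e-09). MTRR (ENSG00000124275, chromosome 5 from 7851186 to 7906025), the reductase that restores the B12 cofactor of MTR, had 56.8, 57.9 and 56.6 CPM in sh-control and 54.0, 55.6 and 56.8 CPM in sh-circFTO. Those ranges overlapped. Its log2 fold change was -0.04 (SE 0.0594, edgeR quasi-likelihood adjusted p = 0.541), and its 95% interval, -0.16 to 0.08, did not reach the value of MTR. With library size as the only scaling its sign turned, to 0.10 (edgeR quasi-likelihood adjusted p = 0.121).

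BHMT (ENSG00000145692, chromosome 5 from 79111809 to 79132288) remethylates homocysteine with betaine. Its level was 15.4, 11.5 and 14.1 CPM in sh-control and 4.49, 4.57 and 4.11 CPM in sh-circFTO. All sh-circFTO libraries were low and close together. The log2 fold change was -1.63 (SE 0.152, edgeR quasi-likelihood adjusted p = 1.13e-10), or 3.10-fold lower. Of its exonic bases 239 (6.79%) also belong to DMGDH on the opposite strand, and reads there cannot be assigned to either gene. DMGDH had 206, 212 and 193 counts in sh-control and 174, 174 and 136 in sh-circFTO. Of the summed BHMT and MTR FPKM, BHMT made up 44.4%, 38.1% and 43.0% in the sh-control libraries and 24.2%, 26.0% and 23.0% in the sh-circFTO libraries, a share chosen after its values were seen and not tested. The size of this share depends on the exonic length taken for MTR, and with GENCODE 29 lengths for both genes it was 26.4% to 31.8% in sh-control and 14.9% to 17.0% in sh-circFTO.

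CBS (ENSG00000160200, chromosome 21 from 43053191 to 43076943), the first enzyme of transsulfuration, condenses homocysteine with serine to cystathionine. Its libraries were spread out, with an SD of 6.77 CPM around 31.4 CPM in sh-control and of 5.84 CPM around 20.9 CPM in sh-circFTO. The sh-control libraries had 36.0, 34.6 and 23.6 CPM and the sh-circFTO libraries 25.4, 14.3 and 23.2 CPM. The third sh-control library lay below the first sh-circFTO library, and the second sh-circFTO library was the lowest of all. The log2 fold change was -0.60 (SE 0.141, edgeR quasi-likelihood adjusted p = 0.000465), but without sh-circFTO replicate 2 it was -0.38 (edgeR quasi-likelihood adjusted p = 0.0103). DESeq2 did not call it (-0.58, adjusted p = 0.0833), nor did limma on log2(FPKM + 1) (-0.35, adjusted p = 0.133). CBSL, a near-identical copy on chromosome 21 in this assembly, took 4.56% to 10.5% of the counts of both. With both summed the value was -0.57 (edgeR quasi-likelihood adjusted p = 0.000453), a check chosen after seeing the data. How reads that fit both copies were counted is not given in the sources used here. Any such reads left out of both genes would not be restored by the sum.

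CTH (ENSG00000116761, chromosome 1 from 70411218 to 70439851) splits cystathionine to cysteine and had the largest fall of the 10 genes. It stood at 25.9, 20.5 and 24.3 CPM in sh-control and at 5.55, 6.44 and 7.13 CPM in sh-circFTO. No sh-circFTO library came near a sh-control library. The log2 fold change was -1.88 (SE 0.125, edgeR quasi-likelihood adjusted p = 7.17e-14), or 3.68-fold lower, and 148 of the tested genes had a lower value. The ratio of CTH to CBS FPKM was 2.02, 1.66 and 2.88 in sh-control and 0.616, 1.26 and 0.864 in sh-circFTO. On the log2 scale this ratio differed by -1.28 between the groups (n = 3 per group, two-sided exact permutation p = 0.1, the smallest possible). The size of this ratio depends on how reads shared by CBS and CBSL were counted.

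**Figure D3:**
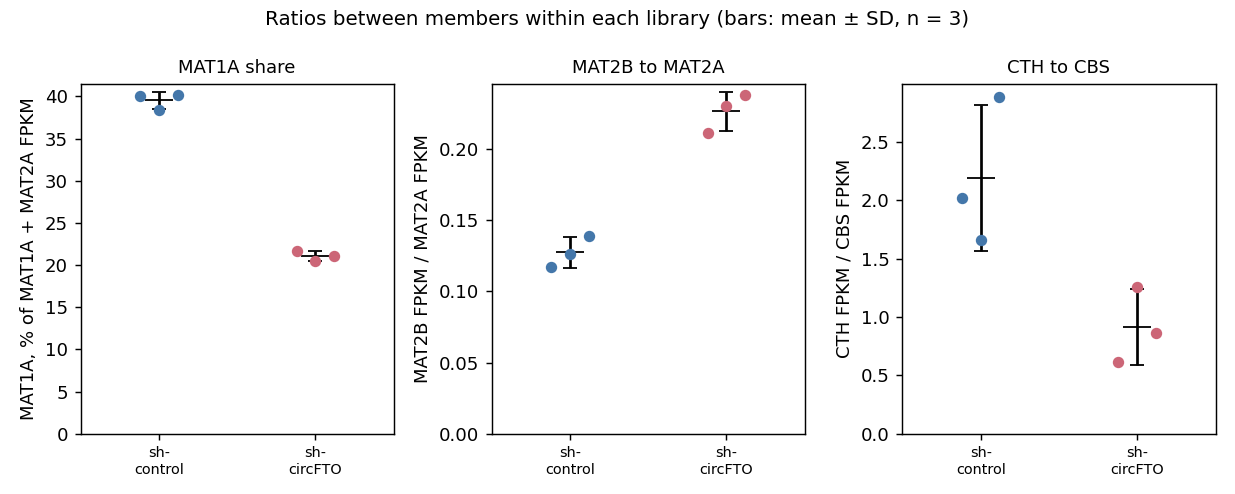
Ratios within each library from deposited FPKM (y axes, from 0): the MAT1A share of MAT1A and MAT2A in percent, MAT2B over MAT2A, and CTH over CBS, for sh-control (blue) and sh-circFTO (red), with mean and SD of 3 libraries in black. The MAT1A share averages 39.5% in sh-control against 21.1% in sh-circFTO, and none of the 3 ratios overlaps between the groups.

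Between genes, levels can be set side by side only per length, in FPKM. In sh-control the order from high to low was AHCY (129), MAT2A (66.1), MAT1A (43.2), CTH (9.28), MAT2B (8.39), MTRR (8.36), MTR (5.15), CBS (4.41), BHMT (3.72) and GNMT (1.22), all mean FPKM over 3 libraries. Ranges over the libraries overlapped between CTH and MAT2B, MAT2B and MTRR, MTR and CBS, and CBS and BHMT, so those neighbours are not ordered by these data. In sh-circFTO the mean FPKM ran from AHCY (114), MAT2A (53.0), MAT1A (14.2), MAT2B (12), MTRR (8.97), MTR (4.11), CBS (3.25) and CTH (2.78) to BHMT (1.32) and GNMT (0.417). Here MTR and CBS overlapped, as did CBS and CTH. CTH thus stood beside MAT2B and MTRR in sh-control, and below both in sh-circFTO. The exonic length behind the FPKM of MTR was 19254 bp in the table and 11374 bp in GENCODE 29, so its place among the low genes depends on the annotation. The place of CBS depends on how reads shared with CBSL were counted.

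Genes next to the 10 in the pathway were taken from 8 lists with 80 genes, of which 73 passed the filter. Of these 44 fell, 18 rose and 11 did not pass the test, with a median log2 fold change of -0.28 beside 0.00 for all tested genes, where 34.8% were lower and 34.9% higher. With library size only the split was 33 lower and 25 higher, beside 27% lower and 44.3% higher of all tested genes, and with limma on log2(FPKM + 1) it was 32 lower and 23 higher. The values that follow are log2 fold changes from the same edgeR fit, of genes that passed unless stated.

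**Figure D4:**
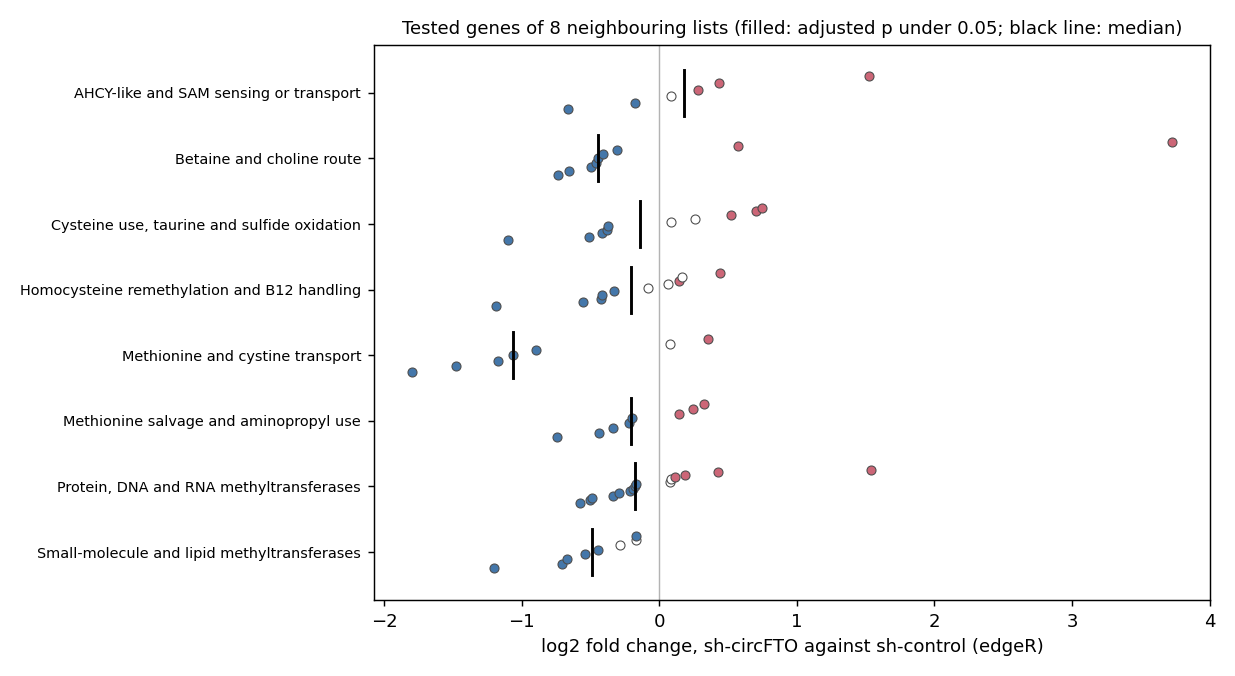
Log2 fold change of sh-circFTO against sh-control (x axis) for the tested genes of the 8 lists (rows), filled blue for lower, filled red for higher and open for not passing the test, with each list's median as a black line. Methionine and cystine transporters have the lowest median at -1.06, and the betaine transporter gene SLC6A12 is the point farthest to the right at 3.73.

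Around homocysteine remethylation and B12 handling, 5 of 10 tested genes fell and 2 rose (4 rose with library size as the only scaling), with a median of -0.20. SHMT1, which supplies the cytosolic one-carbon unit from serine, and MTHFD1, a trifunctional folate enzyme, were at -1.18 and -0.33. MMADHC, which routes B12 to its enzymes, rose by 0.44. The count of 2 higher became 1 without sh-control replicate 1 or 3, or sh-circFTO replicate 1 or 2. It was also 1 with DESeq2, with edgeR's own filter and with no filter on low values.

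In the betaine and choline route 7 of 9 genes fell and 2 rose (5 fell with library size as the only scaling), with a median of -0.45. BHMT2, a relative of BHMT that methylates homocysteine with S-methylmethionine, fell from 78.1 ± 2.10 to 46.9 ± 0.907 CPM (n = 3), a smaller change than that of BHMT (-0.74 against -1.63, a difference that was not tested). SLC6A12, a betaine and GABA transporter, rose from 0.892 ± 0.259 to 11.9 ± 0.524 CPM (3.73), and ALDH7A1, which oxidises betaine aldehyde, rose by 0.57. Because SLC6A12 passed the filter on low values only where it was high, it had to differ.

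Of the 6 AHCY-like and S-adenosylmethionine sensing or transport genes, 3 rose and 2 fell (4 and 1 with library size as the only scaling), and the median was 0.18. BMT2, also called SAMTOR, the S-adenosylmethionine sensor of the mTORC1 pathway, rose from 9.87 ± 1.41 to 28.3 ± 2.02 CPM (1.52, n = 3). METTL16, an RNA methyltransferase that controls MAT2A splicing, rose by 0.43, and SLC25A26, the carrier that brings S-adenosylmethionine into mitochondria, was at -0.66. Gene counts do not show the splicing of MAT2A.

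Methionine salvage and aminopropyl use, which feed on decarboxylated S-adenosylmethionine and return its sulfur to methionine, had 5 of 8 genes lower and 3 higher (2 lower with library size as the only scaling), with a median of -0.21. The salvage enzyme ENOPH1 was at -0.74 and AMD1, which decarboxylates S-adenosylmethionine, at -0.44. SMS, spermine synthase, rose by 0.33. For cysteine use, taurine and sulfide oxidation, 5 of 10 tested genes fell and 3 rose, with a median of -0.14. With library size as the only scaling 4 rose. The named sulfur enzymes TST and MPST and the aminotransferase GOT1 were at -1.10, -0.38 and -0.42.

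Among enzymes that spend S-adenosylmethionine on small molecules or lipids, 6 of 8 tested genes fell and none rose, with a median of -0.49. The count of 6 lower became 5 with library size as the only scaling, with DESeq2 and with both limma fits. It was also 5 without sh-circFTO replicate 2 or 3, or sh-control replicate 1, and was 7 with edgeR's own filter. HNMT, which methylates histamine, and GAMT, which makes creatine, were at -0.54 and -0.67. NNMT, a nicotinamide methyltransferase, had no counts in sh-control and 4, 0 and 0 counts in the sh-circFTO libraries, and did not pass the filter. Protein, DNA and RNA methyltransferases had 9 of 15 genes lower and 4 higher (5 lower with library size as the only scaling, and 2 higher without sh-control replicate 1), with a median of -0.18. DNMT3B, a de novo DNA methyltransferase, rose from 29.6 ± 0.781 to 86.0 ± 3.10 CPM (1.54, n = 3). The histone methyltransferase genes NSD2 and EZH2 were at -0.50 and -0.49.

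Methionine and cystine transporters had 5 of 7 tested genes lower and 1 higher (2 higher with library size as the only scaling), with a median of -1.06. SLC7A5, the exchanger that brings in methionine and other large neutral amino acids, fell from 436 ± 17.0 to 194 ± 0.691 CPM (-1.17, n = 3). SLC43A1, a further transporter of that class, fell from 148 ± 3.18 to 52.9 ± 0.409 CPM (-1.48, n = 3). SLC1A4, a transporter of alanine, serine and cysteine, fell from 87.9 ± 3.71 to 25.3 ± 0.688 CPM (-1.80, n = 3).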

How the data were processed

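The series has a single table with 6 columns of deposited raw counts by Ensembl gene. Beside them stand FPKM values made by the authors from those counts, per the file headers. Counts divided by the table's exonic length and the library total gave every FPKM value within 0.01 (0 of 363630 differed by more). No aligner, counter, strand setting or annotation is named in the labels or headers. Builds in the submitters' processing notes are GRCm38, mm10 and hg18, with no step named, although the identifiers are those of human genes. GENCODE 29 holds 58337 of the 60605 genes, and 56764 of these lay within 5000 bp of its GRCh38 positions, so coordinates are the table's, on GRCh38.

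The 12865 genes that reached 1 FPKM in 3 or more libraries were fitted with edgeR 4.0.16 in R 4.3.3 (TMM, quasi-likelihood test, Benjamini-Hochberg over all tested genes, 0.05). An SE is the fold change divided by the root of the F statistic. GNMT's value is from a fit of the 30254 genes with any count. Ratios were tested with scipy 1.17.1. The fit was tested on simulated data in which few genes changed, as many higher as lower, so it does not check the scaling of the real data. Libraries of one group differed beyond sampling noise (chi-square per degree of freedom 2.02 to 4.03), which copies of one library would not. The alternatives were other filters and scalings, DESeq2 1.42.0, limma 3.58.1 on log2(FPKM + 1) and log2(FPKM + 0.1), the replicate number as a block, and each library left out.

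The 10 genes and the lists were chosen with earlier results of these data known. The genes named were these 10, and, from each list, the 3 lowest by adjusted p. One gene that this rule takes is not reported here. Marker genes, overlapping genes and NNMT are named outside that rule.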

Additional observations from a re-analysis of the deposited data

How the results depend on the processing

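All 9 tested genes except CBS and MTRR kept their direction and their side of the threshold under each alternative run, and 7 lower and 1 higher were called without each library in turn. CBS was not called by DESeq2 (-0.58, adjusted p = 0.0833) or by limma on log2(FPKM + 1) (-0.35, adjusted p = 0.133) and log2(FPKM + 0.1) (-0.44, adjusted p = 0.140), and ran from -0.76 to -0.38 in edgeR with 1 library left out; the cause was not tested. MTRR, called in no fit, turned to 0.10 with library size only (edgeR adjusted p = 0.121), 0.091 with limma on log2(FPKM + 1) (adjusted p = 0.0840) and 0.10 with limma on log2(FPKM + 0.1) (adjusted p = 0.0822), settings without TMM scaling. From raw counts without length the MAT1A share moved by -16.9 percentage points. GNMT, with 20 to 61 counts a group, stayed lower in each fit that held it, from -2.03 to -1.48 with 1 library left out, at -0.65 with limma on log2(FPKM + 1) and at -1.37 with log2(FPKM + 0.1). The 24 list genes that the naming rule takes kept direction and call in 15 alternatives each, and 21 of 240 list counts moved by more than 1.5 times.

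The libraries showed no clear pairing by replicate number: same-numbered libraries had deviations correlated at -0.0103, -0.00907 and 0.0465. Not every library correlated best with its own number. So few libraries cannot exclude a pairing. With the replicate block 8999 genes were called in place of 8969, and the calls over the 10 genes were again 7 lower and 1 higher (CTH -1.87, MAT1A -1.75, BHMT -1.62).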

Other observations

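The deposited pathway annotation gives another set, taken here after values were seen. It marks 112 genes as cysteine and methionine metabolism, 42 of which were tested. Genes of the lists above were not taken out of this set, so some may be counted in both. Without the methionine cycle and transsulfuration genes described above, 34 remained, of which 19 were lower and 10 higher by edgeR's quasi-likelihood test (adjusted p under 0.05), with a median log2 fold change of -0.21. Of all tested genes 34.8% were lower and 34.9% higher. With library size only, 12 of the 34 were lower and 12 higher, beside 27% and 44.3% of all tested genes, so the split between directions depends on the scaling.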
